A study of Rattus norvegicus albus with 6 samples.

Results

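The metalloproteinase system of the extracellular matrix was followed in activated rat hepatic stellate cells under 3 treatments aimed at canonical Wnt signalling. Its members were the genes named Mmp (matrix metalloproteinases), Adam, Adamts, Adamtsl or Timp followed by a number, together with Reck. Where a gene had several probe sets, the one with the highest mean over the arrays was used. The rule found 54 of 14322 genes with a single symbol: 20 Mmp, 15 Adam, 11 Adamts, 3 Adamtsl and 4 Timp genes, and Reck. Another 4 symbols of these families (Adam1a, Adam3a, Adam4l1 and Adamdec1) fell outside the rule and were not used here.

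Primary hepatic stellate cells, the vitamin A-storing pericytes of the liver that become matrix-producing myofibroblasts in fibrosis, were taken from rats (given as Rattus norvegicus albus, with no strain, sex or age) and activated for 7 days on plastic in low-glucose medium with 10% serum. The first treated group received the Wnt antagonist DKK-1 from an adenovirus (Ad.DKK-1), and its control the same kind of virus with green fluorescent protein in its place (Ad.GFP). Virus was applied at a multiplicity of infection of 200 for 24 h in 5% serum, with 24 h in serum-free medium afterwards. The second group received ICG-001, a small molecule that keeps β-catenin from the coactivator CBP, at 10 µM, and the third FJ9, which blocks the contact of Frizzled receptors with Dishevelled, at 200 µM. Each compound was given for 24 h without serum and had its own vehicle control. All 6 groups share the culture-activated state, so none shows quiescent cells, and the vehicle cultures saw neither virus nor the 5% serum step. Each group was 1 array of RNA pooled from 3 to 4 rats, so there was no replicate and no p-value for any treatment alone.

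Matrix metalloproteinases are zinc enzymes that cut collagens, elastin, proteoglycans and many signalling proteins. ADAM proteins are membrane-bound relatives that release growth factors and cytokines from the cell surface, and ADAMTS proteins are secreted relatives that trim procollagens and cleave proteoglycans. ADAMTSL proteins share the non-catalytic modules of ADAMTS proteins and have no protease domain. The TIMPs are secreted inhibitors that occupy the active site of these enzymes, and RECK is an inhibitor anchored in the cell membrane. In liver fibrosis, activated stellate cells are known as a main source of both matrix-degrading enzymes and TIMP1, and the balance between them bears on whether scar matrix persists.

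Levels are log2 values as deposited, and differences are treated minus own control on that scale, so a difference of −1 is 2-fold lower. A gene was called lower or higher where it lay at least 1.5-fold (0.58 on the log2 scale) from its control. The members' levels are not comparable with each other, because probe sets differ in brightness. Of the 54 members, 36 had a mean over the 6 arrays above 6.39, the level that left out the lowest 30% of genes; counts are given for these 36 unless stated otherwise. The 36 held 13 Mmp, 6 Adam, 9 Adamts, 3 Adamtsl and 4 Timp genes, and Reck. Mmp7 (mean 6.23) lay just under that level and Mmp15 (6.46) just above it. Mmp15 passed only through its treated arrays, and Adamts4 (mean 6.51) only through its controls.

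The stellate identity of the cultures was checked on a list of 12 markers, of which 11 were measured and all 11 passed the level filter. Their mean level was 11.24 with Ad.DKK-1 against 11.84 with Ad.GFP, 11.38 with ICG-001 against 11.81 with vehicle, and 10.89 with FJ9 against 11.63 with vehicle. Of the 11, 6 were at least 1.5-fold lower with Ad.DKK-1, 2 with ICG-001 and 5 with FJ9, and 0 were higher in any treatment. Over all genes past the filter, 20.8%, 13.1% and 14.8% were lower in the same order. The part of these markers in the members' readings was not tested. Of the 6 hepatocyte markers measured, 5 lay under the filter by their mean, albumin (Alb) among them, as did 4 of 5 neutrophil markers and 5 of 9 macrophage markers, while the macrophage genes Cd68, Csf1r, Cd14 and Lyz2 passed it. The cholangiocyte markers Krt19, Epcam and Cldn7 (3 of 3 measured), the lymphocyte markers Cd3e and Cd79b (2 of 3) and the endothelial marker Tek (1 of 3) passed it too. Epcam read 7.47 with FJ9 and 7.45 with its vehicle, and between 5.69 and 6.52 on the other 4 arrays. Array medians over all 26988 probe sets ran from 7.01 to 7.28, and the ICG-001 array lay 0.17 under its vehicle and the Ad.DKK-1 array 0.09 under Ad.GFP. Dkk1 read 6.01 on the Ad.DKK-1 array and 5.85 on Ad.GFP; the labels do not say whether the viral transcript is one that this rat probe set reads, so the reading does not check the label. In bulk RNA, fewer cells of a type and less RNA per cell cannot be told apart.

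With Ad.DKK-1 the system was lower almost throughout. Of 36 members, 27 lay at least 1.5-fold lower than on Ad.GFP and 1 (Mmp15) higher, against 20.8% of all 10025 genes lower and 14.5% higher. The members' median difference was −0.91, against −0.07 for all genes. Proteases and inhibitors lay on the same side: 20 of 28 protease-family genes (Mmp, Adam and Adamts) and 4 of 5 inhibitors were lower, with medians of −0.85 and −1.12. The 28 include Adam11 and Adam23, whose proteins are not active enzymes, and without them 19 of 26 were lower, with a median of −0.85. Whether all of these 26 encode active enzymes was not checked. At a 2-fold threshold, 17 members were lower and 0 higher, against 7.91% and 3.99% of all genes. Adamts4, among the lower members, and Mmp15 are among the 36 only through the arrays on which they are high. Their part in these counts carries no weight. With arrays centred on their medians, 25 members were lower and 1 higher, while all genes split into 1681 lower and 1874 higher, against 2082 and 1449 on the deposited scale. Over all 54 members, including the 18 dim ones, 32 were lower and 4 higher, against 22.6% and 14.5% of 14322 genes.

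With FJ9 the picture was similar in direction and smaller. Of the 36 members, 14 were lower and 1 (Mmp3) higher, against 14.8% and 11.6% of all genes, and the median difference was −0.44 against 0.01 for all genes. Adamts4 is among the 14 and passed the level filter only through its controls, so its part in the counts under FJ9 carries no weight. At 2-fold, 6 were lower and 0 higher, against 6% and 2.44%. Among the protease-family genes 11 of 28 were lower, or 10 of 26 without Adam11 and Adam23, with a median of −0.33 either way, and among inhibitors 2 of 5, with a median of −0.56. All 12 members that were lower under both FJ9 and Ad.DKK-1 are named below, and they make up 85.7% of the 14 lower under FJ9 and 44.4% of the 27 lower under Ad.DKK-1. Over all genes, 7.2% were lower under both, which is 48.7% of those lower under FJ9 and 34.7% of those lower under Ad.DKK-1, and whether the members differ from other genes in this was not tested.

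With ICG-001 most members stayed close to the vehicle. Of 36 members, 5 were higher and 4 lower, shares near those of all genes (12.6% higher and 13.1% lower), and the median difference was −0.08 against 0.01. At 2-fold, 4 were higher and 1 lower, against 2.89% and 3.28%. When each array was centred on its median, which moved the median of all genes to 0.18, 5 members were higher and 2 lower, and 2218 of all genes higher and 754 lower, against 1267 and 1314 on the deposited scale. The members past 2-fold were Adamtsl5 (2.24), Timp3 (2.22), Adamts1 (1.92) and Mmp15 (1.30) on the higher side, and Adamts4 (−1.12) on the lower. Mmp15 and Adamts4 are among the 36 only through the arrays on which they are high, so their part in these counts carries no weight.

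The vehicle arrays, FJ9's minus ICG-001's, give the nearest measure of how far untreated pools differ. There 2 of 36 members were higher (Mmp12 and Timp3) and 1 lower (Adam11), against 2.44% and 5.2% of all genes, and the median was 0.01. At 2-fold, 1 was higher and 0 lower, against 0.309% and 0.828%. Centring moved the median of all genes here to 0.16 and their split to 575 higher and 265 lower, against 245 and 521. These arrays are also the controls of the compounds, so this comparison is not independent of theirs.

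**Figure D1:**
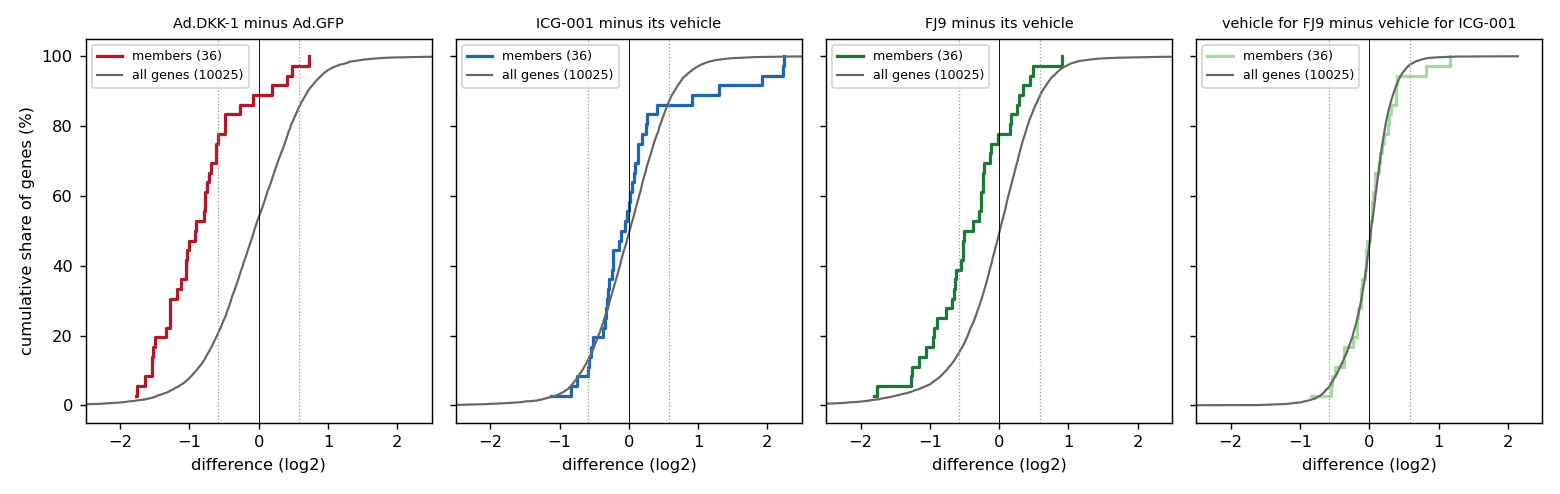
Cumulative share of genes (y axis, %) against the log2 difference (x axis) in each comparison, for the 36 members past the level filter (coloured steps) and all 10025 genes past it (grey line). Dotted lines mark 1.5-fold. The members' steps lie left of the grey line under Ad.DKK-1 (median −0.91) and FJ9 (median −0.44), and close to it under ICG-001 (median −0.08) and between the vehicle arrays (median 0.01).

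**Figure D2:**
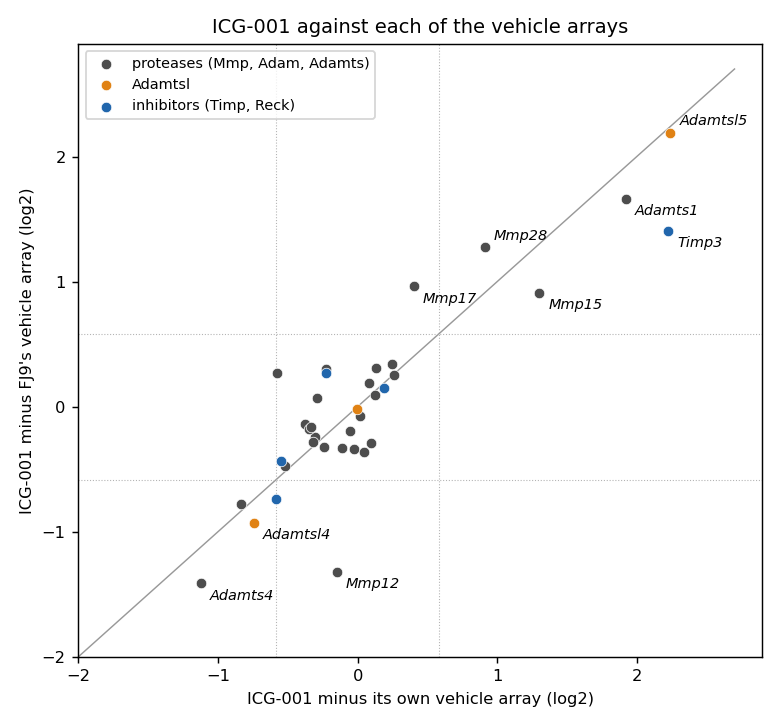
Difference of the ICG-001 array from its own vehicle array (x axis, log2) and from FJ9's vehicle array (y axis, log2) for the 36 members, coloured by class, with the line of equality and dotted lines at 1.5-fold. Adamtsl5, Adamts1, Timp3, Mmp15 and Mmp28 are past 1.5-fold on both axes, on the higher side, and Mmp12 (−0.15 and −1.32) and Mmp17 (0.40 and 0.96) only against FJ9's vehicle. The axes share the ICG-001 array.

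Among the inhibitors, Timp1, a secreted inhibitor of most matrix metalloproteinases and a marker of fibrosis, read below its control in all 3 treatments and at least 1.5-fold below in 1. It read 10.87 with Ad.DKK-1 against 12.50 with Ad.GFP, 11.77 with ICG-001 against 12.32 with vehicle, and 11.69 with FJ9 against 12.20 with vehicle. The 3 controls spanned 0.30 and lay above every treated array. The difference passed 1.5-fold under Ad.DKK-1 (−1.64) and missed it under ICG-001 (−0.55) and FJ9 (−0.51).

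Timp2, which inhibits MMP2 and with MMP14 also takes part in its activation, was lower with Ad.DKK-1. Its level was 10.65 with Ad.DKK-1 against 11.93 with Ad.GFP, 11.96 with ICG-001 against 11.77 with vehicle, and 11.25 with FJ9 against 11.81 with vehicle. Only the difference under Ad.DKK-1 (−1.28) passed 1.5-fold, and that under FJ9 (−0.56) lay just outside the limit and passed it after loess correction (−0.59).

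Timp3, which binds to the matrix and also inhibits ADAM17 and the aggrecanases ADAMTS4 and ADAMTS5, differed in opposite directions. It read 7.27 with Ad.DKK-1 against 7.99 with Ad.GFP, 10.68 with ICG-001 against 8.46 with vehicle, and 8.64 with FJ9 against 9.28 with vehicle. The ICG-001 array was the highest of the 6, and both virus arrays were the lowest. The difference of 2.22 under ICG-001 was 1.41 against the other vehicle array. The difference of −0.63 under FJ9 became 0.18 against the other vehicle array, since the vehicle arrays themselves differed by 0.82.

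Timp4 stayed within 1.5-fold in all comparisons, at 8.44 with Ad.DKK-1 against 8.71 with Ad.GFP, 8.95 with ICG-001 against 9.18 with vehicle, and 8.86 with FJ9 against 8.68 with vehicle. Reck, whose protein restrains MMP2, MMP9 and MMP14 and also serves as a co-receptor for WNT7, was the inhibitor that lay at least 1.5-fold lower in all 3 treatments. It read 9.84 with Ad.DKK-1 against 10.96 with Ad.GFP, 10.18 with ICG-001 against 10.76 with vehicle, and 9.15 with FJ9 against 10.91 with vehicle. All 3 controls lay above all 3 treated arrays, with differences of −1.12, −0.59 and −1.76. The difference under ICG-001 lay at the edge of 1.5-fold and dropped to −0.41 when arrays were centred.

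**Figure D3:**
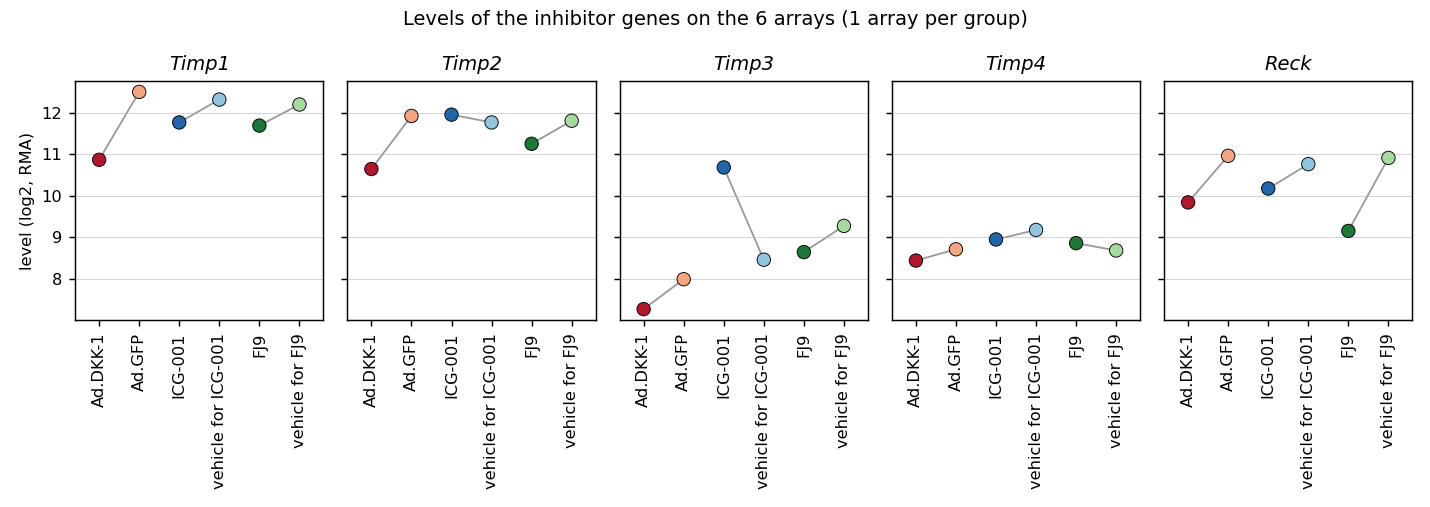
Level (log2, y axis) of the 5 inhibitor genes on each of the 6 arrays (x axis), 1 array per group, with a line joining each treated array to its own control. Timp1 and Reck are lower on every treated array than on any control, Timp3 is highest with ICG-001 (10.68), and Timp4 stays between 8.44 and 9.18.

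The gelatinase Mmp2 and its membrane-bound activator Mmp14 (MT1-MMP) were lower with Ad.DKK-1 and not with ICG-001. Mmp2 read 11.94 with Ad.DKK-1 against 12.72 with Ad.GFP, 12.46 with ICG-001 against 12.44 with vehicle, and 12.26 with FJ9 against 12.53 with vehicle. Mmp14 read 10.63 with Ad.DKK-1 against 11.38 with Ad.GFP, 11.24 with ICG-001 against 11.26 with vehicle, and 10.62 with FJ9 against 11.58 with vehicle. The difference for Mmp2 was −0.78 under Ad.DKK-1, and within 1.5-fold for ICG-001 (0.02) and FJ9 (−0.27). Mmp14 was lower with both Ad.DKK-1 (−0.75) and FJ9 (−0.96), and differed by −0.02 with ICG-001.

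The other membrane-type enzymes had patterns of their own. Mmp16 (MT3-MMP) was lowest with FJ9, at 9.70 with Ad.DKK-1 against 10.29 with Ad.GFP, 9.75 with ICG-001 against 10.12 with vehicle, and 8.73 with FJ9 against 9.89 with vehicle. Its difference was −1.16 under FJ9 and missed 1.5-fold under Ad.DKK-1 (−0.58) and ICG-001 (−0.37). Mmp17 (MT4-MMP), held at the membrane by a lipid anchor, was lower with Ad.DKK-1 and FJ9. It read 6.89 with Ad.DKK-1 against 8.39 with Ad.GFP, 8.34 with ICG-001 against 7.94 with vehicle, and 6.77 with FJ9 against 7.38 with vehicle. The differences were −1.50, 0.40 and −0.62, and the vehicle arrays differed by −0.56, almost as much as FJ9 from its vehicle.

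Mmp15 (MT2-MMP) was the only one of the 36 members higher under Ad.DKK-1. Its level was 7.01 with Ad.DKK-1 against 6.28 with Ad.GFP, 7.07 with ICG-001 against 5.76 with vehicle, and 6.50 with FJ9 against 6.16 with vehicle. All 3 treated arrays lay above all 3 controls. The controls were each under the level filter and the treated arrays above it, so Mmp15 passed the filter only through the arrays on which it was high. The differences were 0.73, 1.30 and 0.34.

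Mmp19, which cleaves basement membrane and aggrecan, and the membrane protein Mmp23 were both lower with Ad.DKK-1. Mmp19 read 9.31 with Ad.DKK-1 against 10.35 with Ad.GFP, 9.92 with ICG-001 against 10.03 with vehicle, and 9.20 with FJ9 against 10.25 with vehicle. It was about as much lower with FJ9 (−1.05) as with Ad.DKK-1 (−1.04), and not with ICG-001 (−0.11). Mmp23 read 10.06 with Ad.DKK-1 against 11.34 with Ad.GFP, 10.41 with ICG-001 against 10.92 with vehicle, and 10.62 with FJ9 against 10.88 with vehicle. Only its difference under Ad.DKK-1 (−1.28) passed 1.5-fold, and those under ICG-001 (−0.52) and FJ9 (−0.26) did not.

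Mmp12, an elastase best known from macrophages, was lower with Ad.DKK-1 and close to the vehicle with either compound. It read 8.40 with Ad.DKK-1 against 9.68 with Ad.GFP, 9.22 with ICG-001 against 9.37 with vehicle, and 10.42 with FJ9 against 10.54 with vehicle. The arrays of the FJ9 experiment, treated and vehicle, were the highest, and the vehicle arrays differed by 1.17, so the choice of vehicle decides its call. Against the other vehicle array, the differences were −1.32 for ICG-001 and 1.05 for FJ9.

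Macrophage markers differed between the arrays as well. The mean level of the 9 macrophage markers was 6.31 with Ad.DKK-1 against 7.36 with Ad.GFP, 6.30 with ICG-001 against 7.04 with vehicle, and 6.59 with FJ9 against 7.16 with vehicle. All 4 that passed the filter were lower with Ad.DKK-1, and 2 of 4 with either compound, while 2 of 4 (Cd68 and Lyz2) were higher on the FJ9 vehicle array than on that of ICG-001. Csf1r, counted as lower in each treatment, read under the filter level on every treated array and above it on every control. It passed the filter only through its controls, so its part in these counts carries no weight. Over all genes, 20.8% were lower with Ad.DKK-1, 13.1% with ICG-001 and 14.8% with FJ9, and 2.44% were higher between the vehicle arrays. Adgre1, which encodes the macrophage antigen F4/80, read 4.51 with Ad.DKK-1 and 7.03 with Ad.GFP, and between 4.11 and 4.96 on the other 4 arrays. Their part in the Mmp12 readings was not tested.

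Mmp3 (stromelysin-1), which cuts proteoglycans and activates other pro-enzymes, read 7.33 with Ad.DKK-1 against 8.03 with Ad.GFP, 9.68 with ICG-001 against 9.99 with vehicle, and 10.84 with FJ9 against 9.92 with vehicle. It was lower with Ad.DKK-1 (−0.70) and higher with FJ9 (0.91), and both virus arrays lay well under the other 4. Mmp28 (epilysin) read 8.27 with Ad.DKK-1 against 9.04 with Ad.GFP, 9.76 with ICG-001 against 8.84 with vehicle, and 8.26 with FJ9 against 8.48 with vehicle. It was lower with Ad.DKK-1 (−0.77) and higher with ICG-001 (0.91), where the difference from the other vehicle array was 1.28.

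The remaining Mmp genes past the filter were Mmp11, Mmp20 and Mmp27. The enamel protease gene Mmp20 was lower with Ad.DKK-1 (−0.78), where it read 6.15, under the filter level. Mmp11 and Mmp27 stayed within 1.5-fold in all 3 treatments, between −0.48 and 0.41.

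Of the ADAM genes, Adam15 and Adam23 were furthest from the control with Ad.DKK-1. Adam15, a membrane protease that binds integrins, read 8.31 with Ad.DKK-1 against 9.65 with Ad.GFP, 9.07 with ICG-001 against 9.40 with vehicle, and 8.72 with FJ9 against 9.23 with vehicle. Its differences of −1.34, −0.34 and −0.52 passed 1.5-fold under Ad.DKK-1 alone. Adam23, whose protein is an adhesion molecule without protease activity, read 8.26 with Ad.DKK-1 against 9.80 with Ad.GFP, 9.70 with ICG-001 against 9.93 with vehicle, and 8.45 with FJ9 against 9.39 with vehicle. It was lower with Ad.DKK-1 (−1.53) and with FJ9 (−0.95), and both treated arrays lay under every control.

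The sheddases Adam9 and Adam17, the second of which releases tumour necrosis factor from the cell surface, were lower with Ad.DKK-1 by less. Adam9 differed by −0.91 with Ad.DKK-1, 0.13 with ICG-001 and −0.23 with FJ9. Adam17 differed by −0.62, 0.09 and −0.29 in the same order, while the vehicle arrays differed by 0.39. Adam32 was lower with ICG-001 (−0.83), and Adam11, whose protein also lacks protease activity, stayed within 1.5-fold in all 3, although the vehicle arrays differed by −0.84.

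Of the ADAMTS genes, 7 of 9 were lower with Ad.DKK-1, with a median of −1.18, and 6 of 9 with FJ9, with a median of −0.68. Over all genes, 20.8% and 14.8% were lower in these comparisons. Adamts4 and Adamts19, lower in both, read under the filter level with Ad.DKK-1 and with FJ9. Under ICG-001, 1 of 9 was higher and 1 lower, near the 12.6% and 13.1% of all genes, with a median of 0.08. Adamts2 and Adamts14 encode procollagen N-proteinases, which remove the amino-terminal propeptide so that collagen fibrils can form. Adamts2 read 9.88 with Ad.DKK-1 against 11.65 with Ad.GFP, 10.98 with ICG-001 against 11.30 with vehicle, and 10.75 with FJ9 against 11.27 with vehicle. All 3 treated arrays lay under all 3 controls, and the difference of −1.77 under Ad.DKK-1 was the furthest below the control among the 36 members. Under ICG-001 and FJ9 it differed by −0.32 and −0.52.

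Adamts14 read 8.01 with Ad.DKK-1 against 9.20 with Ad.GFP, 8.48 with ICG-001 against 8.43 with vehicle, and 8.07 with FJ9 against 8.84 with vehicle. It was lower with Ad.DKK-1 (−1.18) and FJ9 (−0.77), and the second of these was −0.36 against the other vehicle array. The third enzyme of this kind, Adamts3, lay under the level filter and its 2 probe sets disagreed under Ad.DKK-1, at −1.08 and 0.995.

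Several ADAMTS enzymes cut the large aggregating proteoglycans aggrecan and versican. Adamts4 (aggrecanase-1) was lower in all 3 treatments, at 5.74 with Ad.DKK-1 against 7.50 with Ad.GFP, 5.69 with ICG-001 against 6.81 with vehicle, and 6.20 with FJ9 against 7.10 with vehicle. Treated and control arrays did not overlap, and the differences were −1.75, −1.12 and −0.90. Each treated array was under the level filter and each control above it, so Adamts4 passed the filter only through its controls. Adamts5 (aggrecanase-2), under the filter, went the other way: it read 6.15 with Ad.DKK-1 against 5.40 with Ad.GFP, 6.28 with ICG-001 against 5.66 with vehicle, and 6.97 with FJ9 against 5.94 with vehicle. Its differences of 0.75, 0.62 and 1.04 are between dim readings.

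Adamts1, also a versican and aggrecan protease, was set apart by ICG-001. It read 10.10 with Ad.DKK-1 against 9.63 with Ad.GFP, 11.23 with ICG-001 against 9.31 with vehicle, and 9.56 with FJ9 against 9.57 with vehicle. The difference of 1.92 under ICG-001 was 1.66 against the other vehicle array. Adamts1 and Adamts5 are neighbours in the rat genome (GRCr8). Both passed 1.5-fold on the higher side with ICG-001 (1.92 and 0.62). Only Adamts5 did so with Ad.DKK-1 (0.47 for Adamts1 and 0.75 for Adamts5) and with FJ9 (−0.02 and 1.04). The mean level of Adamts5 lay under the filter.

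Adamts9, which cleaves versican and has a role in primary cilia, was lower with Ad.DKK-1 and FJ9. It read 8.12 with Ad.DKK-1 against 9.16 with Ad.GFP, 8.64 with ICG-001 against 8.93 with vehicle, and 7.31 with FJ9 against 8.57 with vehicle. The differences were −1.04, −0.29 and −1.26. Adamts15, another proteoglycan-cleaving enzyme, read 7.37 with Ad.DKK-1 against 8.91 with Ad.GFP, 8.56 with ICG-001 against 8.48 with vehicle, and 8.86 with FJ9 against 8.37 with vehicle. It was lower with Ad.DKK-1 only (−1.54), and within 1.5-fold under ICG-001 (0.08) and FJ9 (0.49).

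Adamts7 and Adamts12 encode related enzymes that cleave cartilage oligomeric matrix protein. Adamts7 was furthest from its control with FJ9, at 7.99 with Ad.DKK-1 against 9.005 with Ad.GFP, 9.39 with ICG-001 against 9.15 with vehicle, and 7.25 with FJ9 against 9.05 with vehicle. Its difference of −1.80 was the lowest of the 36 members under FJ9, and it was −1.01 under Ad.DKK-1 and 0.25 under ICG-001. Adamts12 passed 1.5-fold with FJ9 (−0.65) and not with Ad.DKK-1 (−0.48) or ICG-001 (0.13). Adamts19 read 5.32 with Ad.DKK-1 against 6.85 with Ad.GFP, 7.22 with ICG-001 against 6.96 with vehicle, and 6.29 with FJ9 against 6.97 with vehicle. It was lower with Ad.DKK-1 (−1.53) and FJ9 (−0.68), to readings under the filter level, and differed by 0.26 with ICG-001.

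The ADAMTSL genes split. Adamtsl4, whose protein binds fibrillin microfibrils, was lower in all 3 treatments. It read 8.91 with Ad.DKK-1 against 9.96 with Ad.GFP, 9.40 with ICG-001 against 10.14 with vehicle, and 9.06 with FJ9 against 10.32 with vehicle. Treated and control arrays did not overlap, and the differences were −1.05, −0.74 and −1.27.

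Adamtsl5 read 7.20 with Ad.DKK-1 against 7.82 with Ad.GFP, 9.90 with ICG-001 against 7.66 with vehicle, and 8.16 with FJ9 against 7.71 with vehicle. The 3 controls spanned 0.15, and the ICG-001 array stood 2.24 above its own vehicle and 2.19 above the other. Under Ad.DKK-1 it differed by −0.61, which missed 1.5-fold when arrays were centred (−0.52). Adamtsl3 was lower with Ad.DKK-1 (−0.90) and differed by −0.0045 with ICG-001 and 0.26 with FJ9.

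**Figure D4:**
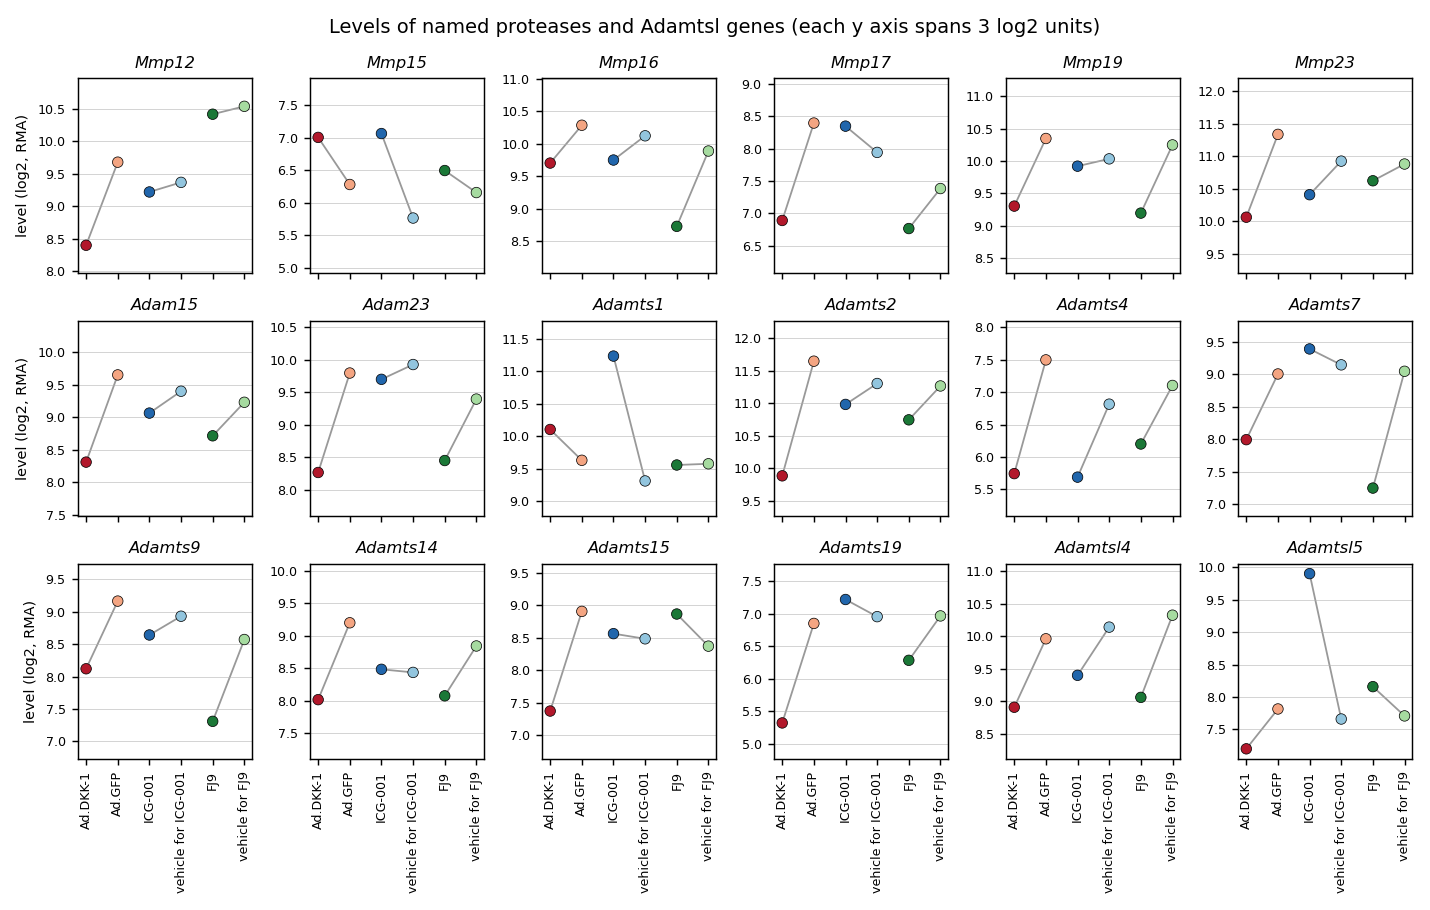
Level (log2, y axis, each spanning 3 log2 units) of the 18 protease and Adamtsl genes at least 2-fold from their control in a treatment or 1.5-fold the same way in all 3, on each of the 6 arrays (x axis), with a line joining each treated array to its own control. Adamts4 and Adamtsl4 are lower on every treated array, Adamts7 is lowest with FJ9 (7.25), and Adamts1 and Adamtsl5 are highest with ICG-001 (11.23 and 9.90).

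The 18 members under the level filter were Mmp1, Mmp7, Mmp8, Mmp9, Mmp10, Mmp13, Mmp21, Adam2, Adam4, Adam5, Adam6, Adam7, Adam18, Adam28, Adam30, Adam34, Adamts3 and Adamts5. Their readings ran from 4.00, the floor of the deposited values, to 6.97. Collagenases and the gelatinase Mmp9 were thus dim on all arrays or nearly so: Mmp13, the main interstitial collagenase of rodents, read 5.20 with Ad.DKK-1 against 4.65 with Ad.GFP, 4.45 with ICG-001 against 4.57 with vehicle, and 5.84 with FJ9 against 4.66 with vehicle. Mmp9 read 4.00 with Ad.DKK-1 and 6.63 with ICG-001, its lowest and highest. No difference between dim readings is taken further.

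A run of 9 Mmp genes (Mmp13, Mmp12, Mmp3, Mmp1, Mmp10, Mmp8, Mmp27, Mmp20 and Mmp7) lies within 10 neighbouring coding genes in GRCr8. Of these, 4 passed the level filter and they did not share a pattern. With FJ9, Mmp3 differed by 0.91 and Mmp12 by −0.12. With Ad.DKK-1, Mmp3, Mmp12 and Mmp20 were lower and Mmp27 differed by 0.41.

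Across the 3 treatments, 3 of 36 members (Adamts4, Adamtsl4 and Reck) were lower in all 3 and 0 higher in all 3, against 3.14% and 2.41% of all genes. Adamts4 is among the 36 only through its controls, where it is high. Another 9 were lower in exactly 2 treatments and 18 in exactly 1, against 8.36% and 22.5% of all genes. Of the 27 lower with Ad.DKK-1, 21 stayed within 1.5-fold with ICG-001, 3 were lower there too and 3 (Timp3, Mmp28 and Adamtsl5) were higher. Of all genes lower with Ad.DKK-1, 67.6% stayed within 1.5-fold with ICG-001, 29.2% were lower and 3.27% higher. Only Adam11, Mmp11, Mmp27 and Timp4 stayed within 1.5-fold in all 3. The difference between treatments was not tested for any member.

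**Figure D5:**
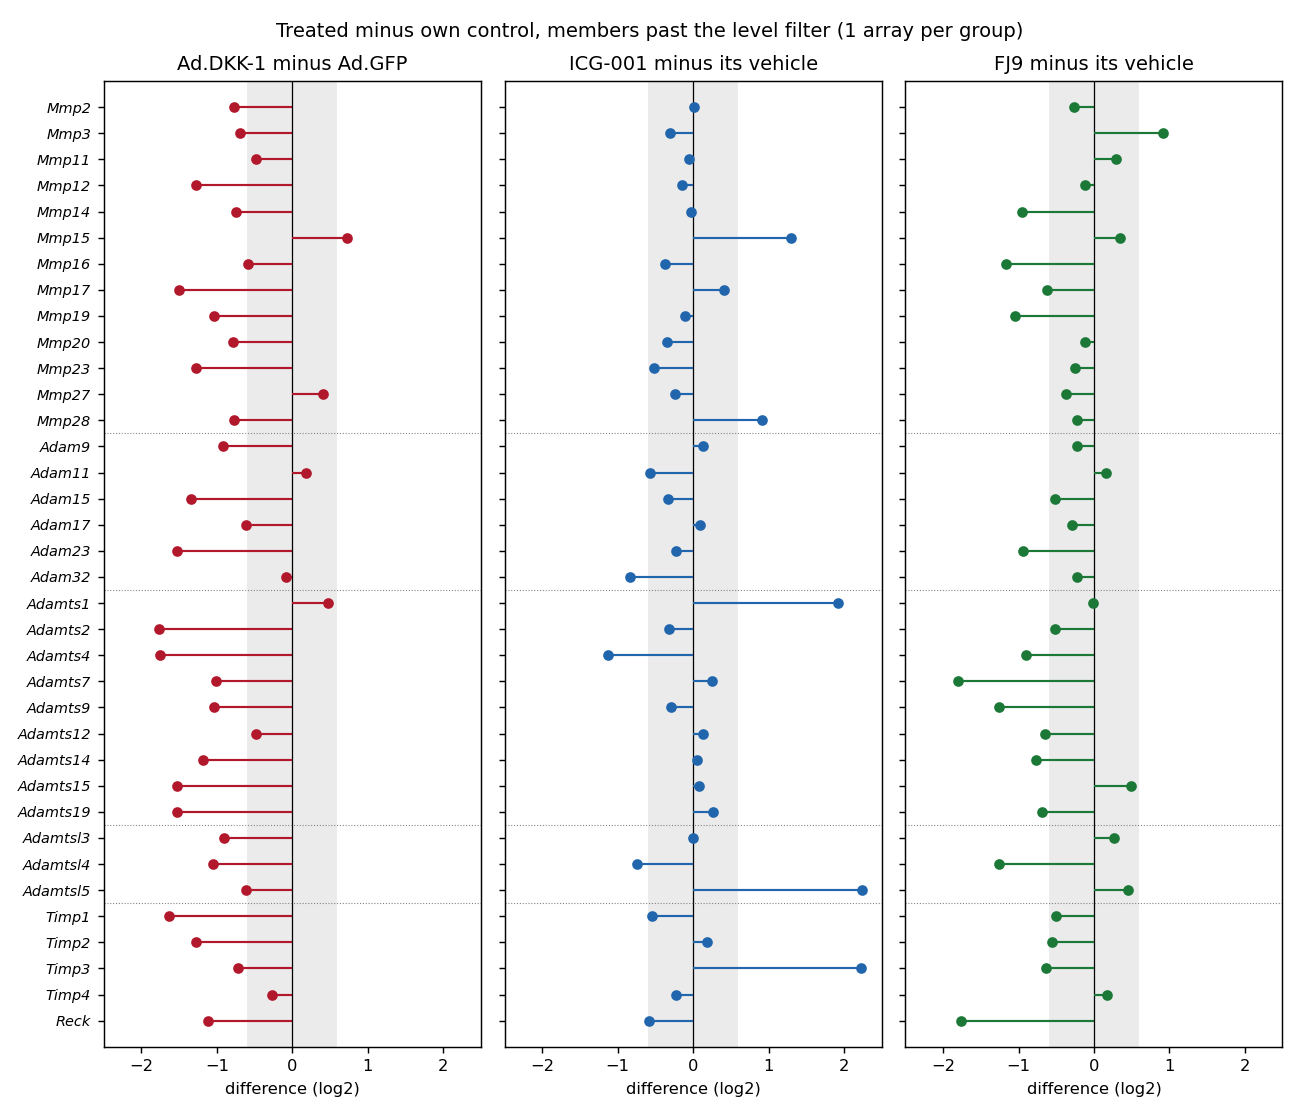
Difference between treated array and own control (log2, x axis) for each of the 36 members past the level filter (y axis), grouped as Mmp, Adam, Adamts, Adamtsl and inhibitor genes, with the range within 1.5-fold shaded. Under Ad.DKK-1, 27 members lie left of the shading and 1 right of it, under ICG-001 4 and 5, and under FJ9 14 and 1.

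The mean difference over the 3 pairs was tested across all 10025 genes with limma, with the pair as a block. This test asks about the mean over 3 unlike treatments and says nothing of any treatment alone. Of 36 members, 7 were called lower and 0 higher at a Benjamini-Hochberg adjusted p under 0.05, against 5.02% and 3.56% of all genes, and 16 were lower and 2 higher at an unadjusted p under 0.05, against 13.1% and 11.9% of all genes. By mean difference and limma adjusted p, Reck was at −1.16 ± 0.22 (SE, adjusted p = 0.0055), Adamtsl4 at −1.02 ± 0.20 (adjusted p = 0.0064) and Adamts4 at −1.26 ± 0.29 (adjusted p = 0.016), the last of them past the level filter only through its control arrays. Timp1 (−0.90, limma adjusted p = 0.023), Adam23 (−0.90, 0.034), Adamts2 (−0.87, 0.041) and Adamts9 (−0.86, 0.043) followed, each lower on 3 of 3 treated arrays than on their controls.

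The calls of Reck and Adamtsl4 held under all 8 alternative fits, with limma adjusted p up to 0.041 and 0.036. Adamts4 lost the call without the Ad.DKK-1 pair and without the ICG-001 pair, with limma adjusted p up to 0.068. Timp1, Adam23, Adamts2 and Adamts9 all lost the call with centred arrays, without a trend and without the Ad.DKK-1 pair. Adam23, Adamts2 and Adamts9 lost it without the pair block, Adamts2 and Adamts9 with repeated quantile normalization, and Adamts9 without the FJ9 pair. These 4 had limma adjusted p up to 0.14, 0.18, 0.28 and 0.20 over the alternatives. The fit without the Ad.DKK-1 pair called Reck and Adamtsl4 lower, and Adamts1 and Adamtsl5 higher.

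Proteases were set against inhibitors by their medians. The median of the 28 protease-family genes lay above that of the 5 inhibitors by 0.27 with Ad.DKK-1, by 0.15 with ICG-001 and by 0.22 with FJ9. Without the inactive Adam11 and Adam23 the gaps were 0.27, 0.19 and 0.22 in the same order. With 5 inhibitors that differed among themselves by up to 2.81 under ICG-001, these gaps are small, and against the other vehicle array they became −0.30 for ICG-001 and 0.03 for FJ9. With Ad.DKK-1 the enzymes and inhibitors were therefore lower side by side, for example Mmp2 (−0.78) and Mmp14 (−0.75) beside Timp2 (−1.28) and Reck (−1.12). With ICG-001, Timp3 stood 2.22 above its vehicle. Of the genes named above for proteins it inhibits, Adam17 differed by 0.09 and Adamts4 was lower (−1.12), to a reading under the filter level. Adamts5, the last of those named, was dim. Among all 28 protease-family genes, 3 were higher with ICG-001, Adamts1 (1.92) and Mmp15 (1.30) among them, and 2 were lower. With FJ9, Mmp14 (−0.96) and Reck (−1.76) were both lower.

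Genes that act with the system were read from lists of textbook roles. Among activators, partners, clearance receptors and further inhibitors, 15 of 22 were measured past the filter. With Ad.DKK-1, 9 were lower and 1 higher, with ICG-001 4 and 1, and with FJ9 3 and 3. Over all genes, 20.8% were lower and 14.5% higher with Ad.DKK-1, 13.1% and 12.6% with ICG-001, and 14.8% and 11.6% with FJ9. Furin, which activates membrane-type MMPs and ADAMs by cutting their propeptides, differed by −0.78, −0.17 and −0.66 in the order Ad.DKK-1, ICG-001, FJ9. With FJ9 its difference was −0.43 against the other vehicle array. Pcsk6, a related convertase, was lower with Ad.DKK-1 (−1.23), as was Bsg, which encodes the MMP inducer basigin (−0.89).

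The broad protease inhibitor gene A2m was lower with Ad.DKK-1 (−2.27) and ICG-001 (−0.79) and not with FJ9 (−0.31). Tspan5, a tetraspanin that guides ADAM10, was higher in all 3 (1.78, 1.37 and 1.04). Tspan17, of the same group, was lower in all 3 (−0.76, −0.60 and −0.997). Tspan33, also of that group, was lower with Ad.DKK-1 (−0.65) and ICG-001 (−0.61) and differed by 0.51 with FJ9. It read 5.89 with Ad.DKK-1 and 6.30 with ICG-001, both under the filter level. Against the other vehicle array, Tspan17 (−0.54) and Tspan33 (−0.30) missed 1.5-fold with ICG-001. Tfpi2, a matrix-bound serine protease inhibitor, was lower with ICG-001 (−1.04) and higher with FJ9 (0.71), while the vehicle arrays differed by 1.23. Rhbdf2, needed for ADAM17 maturation, was higher with FJ9 (0.92).

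Of 7 other metzincin genes, which share the zinc site of MMPs and ADAMs, 3 passed the filter. Pappa, whose protein cleaves insulin-like growth factor binding proteins, was higher in all 3 treatments (2.03, 2.41 and 2.89). It read 6.08 with Ad.GFP, under the filter level, so the first of these differences is from a dim control. Tll1 was higher with Ad.DKK-1 (0.83) and ICG-001 (1.92), and Bmp1, the procollagen C-proteinase related to it, was lower with Ad.DKK-1 (−1.15). With FJ9 Tll1 differed by −0.0036 and Bmp1 by −0.43, and Bmp1 differed by −0.15 with ICG-001.

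All 11 other matrix-degrading enzymes past the filter were lower with Ad.DKK-1, against 20.8% of all genes, with a median of −0.94. Htra1, among the 11, read 4.91 with Ad.DKK-1 and 5.52 with Ad.GFP. Both are under the filter level, so its call is a difference between dim readings. The furthest were the urokinase Plau (−2.16), the heparanase Hpse (−1.53), the hyaluronidase Hyal1 (−1.36) and Plat (−1.29). Plau and Hpse fell to readings under the filter level with Ad.DKK-1 (5.16 and 6.22). With ICG-001, 2 were lower (Hyal1 at −0.72 and the cathepsin Ctss at −0.66) and 1 higher (Ctsk at 0.69), and Hyal2 differed by −0.27. Over all genes, 13.1% were lower and 12.6% higher. Against the other vehicle array Hyal1 differed by 0.11, Ctsk by 0.49 and Ctss by −1.08, so of these calls only that of Ctss held. With FJ9, 2 were lower, Plau (−1.33) and Htra1 (−0.84), against 14.8% of all genes. Plau read 6.15 with FJ9, under the filter level. Ctss (−0.51) and Ctsl (0.38) were within 1.5-fold. Against the other vehicle array Plau differed by −1.29 and Htra1 by −0.34. Of the lecticans that ADAMTS enzymes cut, 3 of 4 passed the filter. Vcan differed by −0.59, 0.93 and −0.75, Bcan by −0.64, −0.65 and 0.42, and Acan by 0.27, 0.08 and −0.01 under the 3 treatments in that order. Bcan read 6.37 with Ad.DKK-1, just under the filter level. Against the other vehicle array, Vcan differed by 0.30 with ICG-001 and −0.12 with FJ9, and Bcan by −0.20 with ICG-001. None of these passed 1.5-fold.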

How the data were processed

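Gene expression was read on 6 Affymetrix whole-transcript arrays, 1 for each group. The authors deposited each probe set's level as a log2 value after RMA. The submitters' processing notes name Affymetrix Expression Console for that step, without versions, and the array's genome build is not given. No scaling was added, and 6 arrays limit the precision. Gene names came from the platform's annotation. Of 26988 probe sets, 15092 had 1 symbol, 323 several and 11573 were unnamed here. All 54 members matched a RefSeq gene of GRCr8 under the same symbol; that assembly served for names and gene order alone. A gene stood for its probe set of highest mean, and the lowest 30% of genes by mean level were left out, which kept 10025.

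Differences were counted at 1.5-fold, with no test for a single treatment. The two-sided test of limma 3.58.1 in R 4.3.3, with eBayes trend and Benjamini-Hochberg adjustment across the 10025 genes, set treated against control arrays over the 3 pairs, with 2 residual degrees of freedom a gene. Both steps were tested on simulated data. Alternatives were median centring, repeated quantile normalization, loess, other filters, probe set means, a 2-fold threshold, the other vehicle array and, for limma, no block, no trend or a pair left out. Members named in full were the inhibitors and those past the filter at least 2-fold from control in a treatment or 1.5-fold the same way in all 3; Mmp2, Mmp14, Mmp3, Mmp28, Adamts5 and Mmp13 were added after their values were seen. The members and lists were chosen with earlier results of these data known.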

Additional observations from a re-analysis of the deposited data

Results flagged for a closer look

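Among the 36 members past the level filter, 4 lay at least 1.5-fold from control in opposite directions in different treatments. With 1 array a group the difference between treatments was not tested, and virus and compound experiments also differ in their medium and timing. Timp3 was 2.22 higher with ICG-001 and lower with Ad.DKK-1 (−0.72) and FJ9 (−0.63). Adamtsl5 was higher with ICG-001 (2.24) and lower with Ad.DKK-1 (−0.61). Mmp28 was higher with ICG-001 (0.91) and lower with Ad.DKK-1 (−0.77). Mmp3 was higher with FJ9 (0.91) and lower with Ad.DKK-1 (−0.70).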

How the results depend on the processing

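Of 140 recomputed counts and medians, 111 stayed within 1.5 times the reported count or within 0.17, the members' median absolute difference between the vehicle arrays. The lower count with Ad.DKK-1 was 17 at a 2-fold threshold, where 0 were higher; the higher count was 4 without a level filter and 0 with the lowest 50% left out. With ICG-001, the lower count was 2 with centring or with the lowest 50% left out and 1 at 2-fold, the median was 0.091 with centring, and the protease-inhibitor gap was −0.30 with the other vehicle. With FJ9, 6 were lower and 0 higher at 2-fold, 3 were higher without a filter or with the other vehicle, the median was −0.20 without a filter, and the gap was 0.039 with the lowest 50% left out and 0.032 with the other vehicle. Between vehicles, 4 were lower without a filter and 0 with the lowest 50% left out, and at 2-fold 1 was higher and 0 lower. Under limma, the 7 lower calls became 3 with centring or without a trend and 4 without the pair block, and ranged from 2 to 10 with a pair left out; higher calls ranged from 0 to 2. Genes called over the whole table were 860, against 538 with centring, 422 without the pair block and 570 to 722 with a pair left out. Leaving out Adam11 and Adam23, chosen after seeing the data, moved no protease-inhibitor gap by more than 0.17. Timp3 under FJ9 turned to 0.18 with the other vehicle. The causes were not tested.

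The labels give no replicate numbers, and the pair block of limma joins each treated array to its own control. Dim readings near the floor limit what the 18 members under the filter can show.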
